A study of Mus musculus with 41 samples.

Results

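Collagen chains were taken as all protein-coding genes of the count table whose mouse symbol reads Col, a number, a and a number, which selected 44 of 48795 genes. By class, 11 encode fibrillar chains, 6 the chains of type IV collagen in basement membranes, 9 fibril-associated chains and 18 other chains (type VI filaments, networks, multiplexins and transmembrane collagens). RNA came from a section of the pole of mouse kidneys, read at the 3′ ends of messenger RNA. In the first cohort, male mice aged 8 to 10 weeks formed 4 groups of 6: Control, without this injury; UIRI d3, killed on day 3 after the blood supply of the left kidney had been closed for 21 minutes at a core temperature of 34 °C (unilateral ischemia-reperfusion injury); UIRI d7, killed on day 7; and UIRI+Nx d7, killed on day 7 after the other, unharmed kidney had been removed on day 3 (nephrectomy). The design text gives the day 7 animals without nephrectomy a sham operation on day 3, so day and operation are joined between UIRI d3 and UIRI d7. A second cohort held WT_IRd3 (6 libraries), WT_IRd7 (6) and WT_IRNxd7 (4), whose treatment tags read UIRI, UIRI and UIRI+Nx. Its sample titles carry WT, the usual short form of wild type, and name no allele. This cohort had no Control group. Strain, sex, age, ischemia time, core temperature and the day of nephrectomy are not given for it. The labels do not name a strain or an allele for the first cohort. Each library with a group is taken as 1 animal, which the labels do not state for the second cohort.

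Collagens are proteins of 3 chains wound into a triple helix. Fibrillar collagens (types I, III and V) form the fibres that accumulate in a scarring kidney and are made mainly by fibroblasts and pericytes. Type IV collagen forms the sheet under epithelia and endothelia, with alpha1 and alpha2 chains in all basement membranes and the alpha3, alpha4 and alpha5 chains in the mature glomerular filter and parts of the tubule. Fibril-associated collagens coat fibrils, type VI forms beaded filaments near cells, types VIII and X form hexagonal networks, types XV and XVIII sit in basement membrane zones, and types XIII and XVII span the cell membrane.

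Values are CPM, counts scaled by library totals that had been adjusted with a factor for each library (TMM). They are given as the median of a group with its lowest and highest library in parentheses. The percentages of counts below use the unadjusted library totals, so sums of CPM do not match them. A library held 5090418 to 33362940 counts. Collagen genes took a median of 0.104% of counts in Control, 0.320% in UIRI d3, 0.424% in UIRI d7 and 0.455% in UIRI+Nx d7, and 0.280%, 0.354% and 0.383% in WT_IRd3, WT_IRd7 and WT_IRNxd7. Mitochondrial genes took 6.21% to 10.6% of counts in Control libraries and 2.27% to 5.66% in the injured libraries of the first cohort, and the part of this in the results was not tested. A gene is said to rise or fall only where its adjusted p passed 0.05 (edgeR quasi-likelihood test, Benjamini-Hochberg adjustment over all genes tested). Of the 44 genes, 34 passed the filter on low counts for cohort 1 and 33 for cohort 2, where Col19a1 did not. The 10 genes left out of both were Col2a1, Col6a5, Col9a1, Col9a2, Col9a3, Col11a2, Col22a1, Col24a1, Col25a1 and Col28a1, and none of them exceeded 1.35 CPM in any library. In such whole-tissue samples a change in the number of cells of a type and a change in RNA per cell cannot be told apart.

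The summed level of fibrillar chains was several times higher in injured kidneys than in Control, and the differences of the other classes were smaller on this summed scale. Fibrillar chains summed to 262 (223 to 329) CPM in Control, 1343 (1159.7 to 1963) in UIRI d3, 1423 (1289 to 2246) in UIRI d7 and 2153 (1891 to 2667) in UIRI+Nx d7. All injured libraries of the first cohort lay above all Control libraries. The mean log2 difference from Control was 2.41, 2.60 and 3.04 in the same order. Type IV chains summed to 673 (554 to 710.4) CPM in Control and 985 (829.4 to 1109), 1105 (925 to 1454) and 1217 (975 to 1495) in the injured groups. That sum rested on Col4a1: without it the log2 difference of UIRI d3 from Control was -0.24 in place of 0.59. Fibril-associated chains summed to medians of 82.3, 151, 239.8 and 231 CPM, and the remaining chains to 228, 759, 1031 and 846 CPM. In the second cohort the fibrillar sums were 1058 (939 to 1249) CPM in WT_IRd3, 1399 (1204 to 1723) in WT_IRd7 and 1607 (1280.0 to 1988) in WT_IRNxd7. These sums are descriptions and were not tested.

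**Figure D1:**
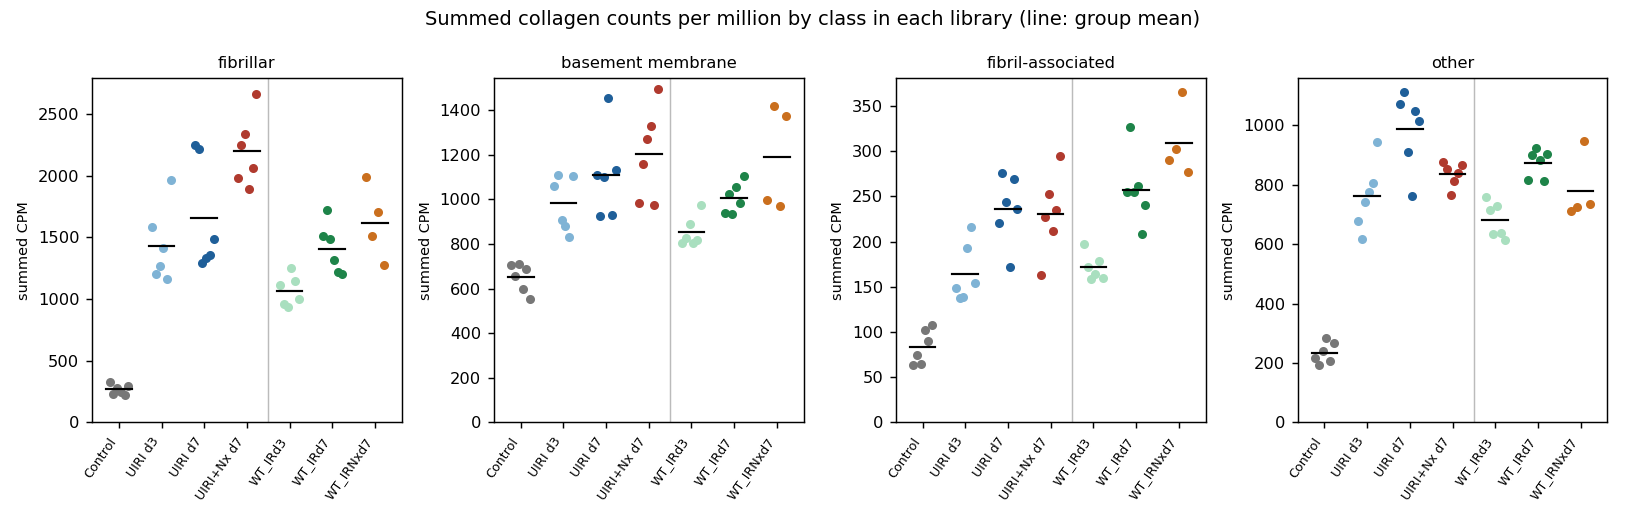
Summed CPM of the chains of each class (vertical axes, linear from 0) in every library of the 7 groups; points are libraries and lines are group means. Fibrillar sums of the 6 Control libraries, with a median of 262 CPM, lie below those of all injured libraries.

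Each injured group of the first cohort was compared with the same 6 Control libraries, which asks which chains ischemia had altered by day 3 and by day 7, with the other kidney in place or removed. In UIRI d3, 20 of 34 tested collagen genes rose and 5 fell, against 17.8% of all genes called higher and 14.9% called lower, 32.7% in all; 16 lay above and 4 below without overlap between the groups (10.3% and 8.08% of all genes). In UIRI d7, 23 rose and 6 fell (21.5% and 18.1% of all genes, 39.6% in all), and 20 lay above and 2 below without overlap between the groups (10.9% and 9.61% of all genes). In UIRI+Nx d7, 22 rose and 5 fell (17.3% and 14.0% of all genes, 31.3% in all), and 18 lay above and 5 below without overlap between the groups (9.74% and 7.38% of all genes). The median log2 fold change of the 34 genes was 1.46, 2.02 and 1.96, beside 0.00062, 0.04 and 0.02 over all 15701 genes tested. Of the 8 tested fibrillar chains, 6, 7 and 7 rose in UIRI d3, UIRI d7 and UIRI+Nx d7, while Col27a1 fell in each. Of the 6 type IV chains, 2 rose and 2 fell in each comparison. Of the 34, only Col4a5, Col4a6 and Col26a1 were called in none of the 3; Col26a1 held 2.38 (1.48 to 4.84) CPM in Control and 3.64 (2.29 to 4.94) in UIRI d7. Because the 3 comparisons share their Control libraries, their counts are not independent of each other.

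**Figure D2:**
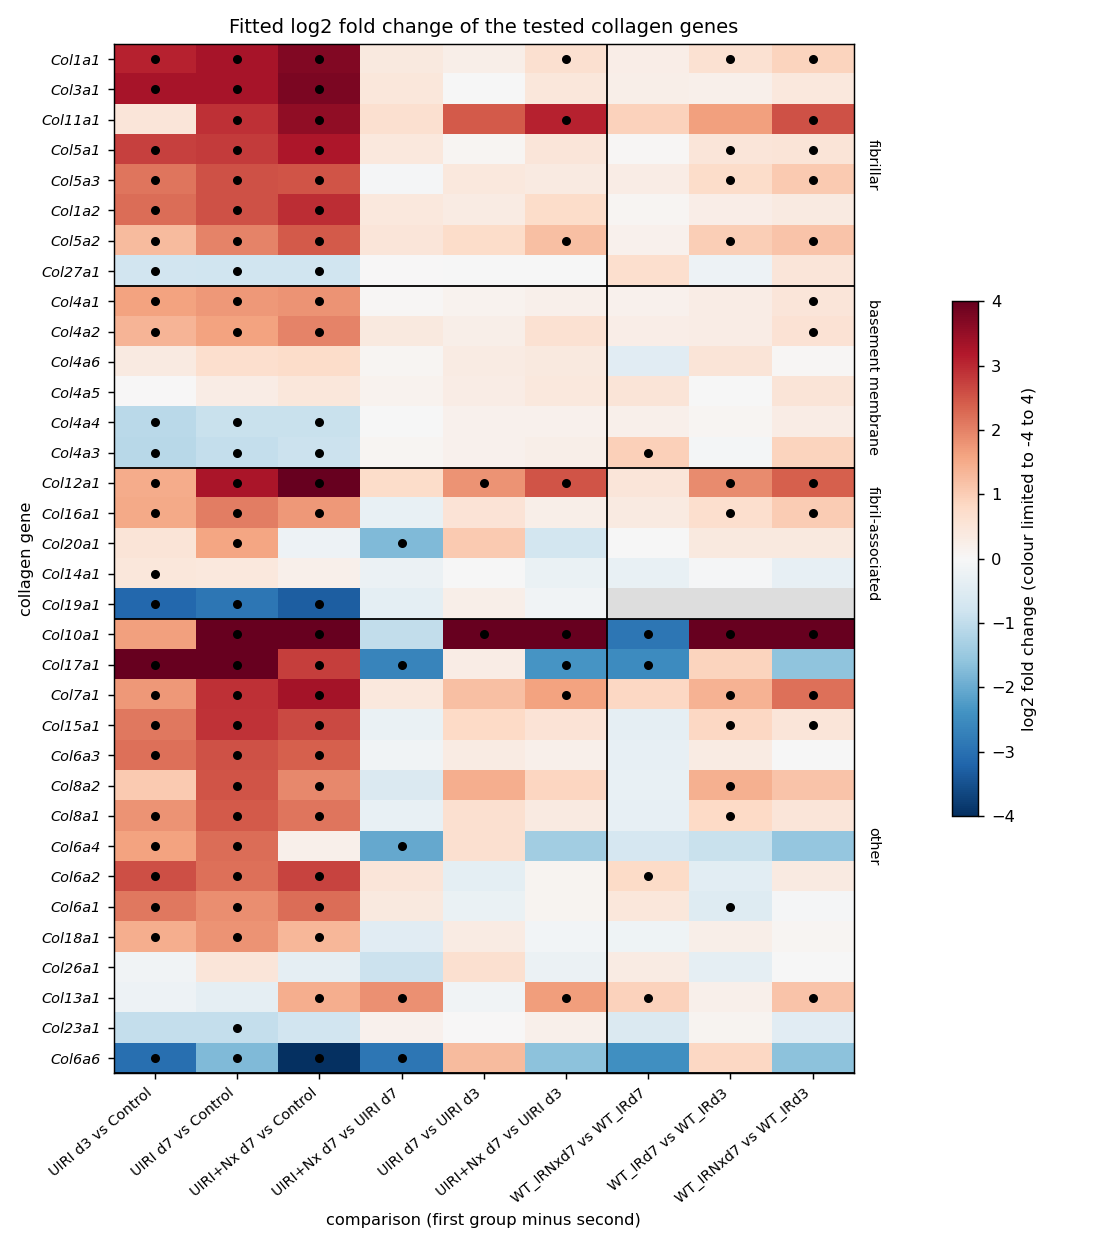
Fitted log2 fold change of each tested collagen gene (rows, grouped by class) in the 9 comparisons (columns, first group minus second); red is higher and blue is lower in the first group, dots mark adjusted p below 0.05, grey was not tested. Red fills most rows of the 3 comparisons with Control, where 20, 23 and 22 genes were called higher, and Col4a3, Col4a4, Col6a6, Col19a1 and Col27a1 are blue there.

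Among the fibrillar chains, Col1a1 (ENSMUSG00000001506; GRCm38 chromosome 11, bases 94936224 to 94953042), the alpha1 chain of type I collagen, stood at 67.3 (42.9 to 83.0) CPM in Control, 541 (411 to 654) in UIRI d3, 605 (464 to 809.7) in UIRI d7 and 782 (661 to 1182) in UIRI+Nx d7. No injured library overlapped with Control. Its log2 fold change from Control was 3.07 (SE 0.20, adjusted p = 1.1e-11) in UIRI d3, 3.30 in UIRI d7 and 3.69 in UIRI+Nx d7 (edgeR). Col1a2, the partner chain of the same molecule, went from 91.0 (62.2 to 109) CPM to 385 (284 to 572), 455 (256 to 793) and 687 (548 to 799.8) CPM. Its log2 fold changes were 2.22, 2.55 and 2.95. Col3a1, the single chain of type III collagen, went from 34.5 (25.3 to 54.1) to 318 (248.9 to 566), 304 (251 to 531) and 460.5 (413 to 643) CPM, again with no overlap with Control. This was a log2 fold change of 3.30 (SE 0.25, adjusted p = 1.04e-10) in UIRI d3 (edgeR).

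Type V collagen helps to start type I fibrils and sets their width. Col5a1 rose from 8.45 (7.09 to 10.1) CPM to 55.7 (50.2 to 65.4) in UIRI d3 and 59.2 (53.3 to 72.2) in UIRI d7, with log2 fold changes of 2.74 and 2.81. Col5a2 rose from 12.49 (8.93 to 16.8) to 25.6 (16.5 to 64.2) and 48.9 (31.5 to 71.9) CPM (1.26 and 2.0), and replicate 6 of UIRI d3, at 64.2 CPM, lay far above the other 5 (16.5 to 26.1 CPM). Within block 1a of the library numbers (3 Control and 2 UIRI d3 libraries; blocks are runs of numbers in the column names of the count table, and what they mark is not stated) the difference of Col5a2 was 0.61 (edgeR adjusted p = 0.129). Col5a3 rose by 2.15 and 2.56. Col11a1, a chain better known from cartilage, was not called in UIRI d3 (0.49, SE 0.74, adjusted p = 0.661, edgeR) and was higher than Control in UIRI d7, with 0.211 (0 to 0.922) CPM in Control and 2.41 (1.31 to 5.05) CPM in UIRI d7. The 7 cartilage and bone markers listed beside it summed to 0.510 to 1.73 CPM in Control and 0.0773 to 1.03 CPM in UIRI d7, and none of them passed the filter. Col27a1 fell from 52.6 (46.4 to 69.6) CPM to 32.1 (28.4 to 38.6) CPM in UIRI d3, without overlap, a log2 fold change of -0.77 (SE 0.22, adjusted p = 0.00914) (edgeR). Its fall missed the threshold in UIRI d3 within block 2b (-0.87), in UIRI d7 within block 1a (-0.88) and in UIRI+Nx d7 within blocks 1a and 2b (-0.50 and -0.80).

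The promoters of Col1a2 and Col3a1 are shown because these chains of types I and III rose together from Control. Each is 300 bases of RefSeq sequence on GRCm38.p6, 250 before and 50 after the start, on the plus strand at chr6:4505368-4505667 and chr1:45311288-45311587. Capitals mark exact matches, on either strand, to GGGCGG (known as the SP1 box), to CCAAT (named after its letters), to TATAAA (a form of the TATA box) and to CAGAC (known as the SMAD box). No match overlaps another in the windows shown.
Col1a2: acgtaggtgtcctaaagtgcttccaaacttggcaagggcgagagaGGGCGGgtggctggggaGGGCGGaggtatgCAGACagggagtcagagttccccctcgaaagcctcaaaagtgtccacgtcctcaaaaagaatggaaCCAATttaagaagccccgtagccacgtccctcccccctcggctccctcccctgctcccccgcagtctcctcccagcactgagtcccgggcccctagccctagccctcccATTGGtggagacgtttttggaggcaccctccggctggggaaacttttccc
Col3a1: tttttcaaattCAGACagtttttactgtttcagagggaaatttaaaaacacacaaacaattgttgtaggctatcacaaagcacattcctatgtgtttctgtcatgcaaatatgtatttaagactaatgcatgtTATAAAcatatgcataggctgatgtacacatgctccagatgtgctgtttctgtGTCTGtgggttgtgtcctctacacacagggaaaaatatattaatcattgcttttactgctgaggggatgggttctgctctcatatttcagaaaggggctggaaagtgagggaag
The Col1a2 window held 2 matches to GGGCGG, 2 to CCAAT and 1 to CAGAC, and that of Col3a1 held 2 to CAGAC and 1 to TATAAA. Over 38 windows matched to 35 of the collagen genes, 60.53% held GGGCGG, 34.21% CCAAT, 13.16% TATAAA and 52.63% CAGAC. Over all 32851 windows of that length the shares were 35.66%, 37.41%, 13.62% and 49.59%. GC content was 61% in the Col1a2 window and 37.67% in that of Col3a1, beside a median of 52.67% over all windows.

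The type IV chains split by pair. Col4a1 (ENSMUSG00000031502, on chromosome 8 from 11198423 to 11312826) rose from 197 (160.2 to 240.2) CPM in Control to 592 (482 to 728) in UIRI d3, 629 (524 to 966) in UIRI d7 and 661 (543 to 906) in UIRI+Nx d7. Its log2 fold changes were 1.60 (SE 0.17, adjusted p = 4.84e-08), 1.75 and 1.79 (edgeR). Col4a2, its partner in the common basement membrane network, rose from 75.6 (57.5 to 98.4) CPM to 190.3 (156 to 266), 222 (181 to 330.3) and 278 (204 to 454) CPM. Both chains separated all injured libraries from all Control libraries.

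Col4a3 and Col4a4, chains of the mature glomerular network, fell. Col4a4 went from 298 (269.8 to 345) CPM in Control to 143 (129 to 164), 174 (142 to 179) and 164 (157 to 175) CPM, with log2 fold changes of -1.07 (SE 0.12, adjusted p = 1e-07), -0.89 and -0.89 (edgeR). No injured library reached the lowest Control library. Col4a3 went from 62.4 (39.3 to 79.2) CPM to 32.1 (16.3 to 33.6), 27.4 (22.6 to 54.6) and 34.7 (24.4 to 39.0) CPM, with log2 fold changes of -1.10, -0.94 and -0.87. Replicate 4 of UIRI d7, at 54.6 CPM, overlapped with Control. Within block 1a the difference of Col4a3 in UIRI d7 was -0.85 (edgeR adjusted p = 0.0966), and within block 2b the differences in UIRI+Nx d7 were -0.97 for Col4a3 and -0.91 for Col4a4, not called. An exon of C430014B12Rik on the opposite strand lies in the last 1000 bases of Col4a3, and the strand setting of the counting is not given in the sources used here. Col4a5 and Col4a6 were not called in any comparison with Control: Col4a5 held 9.46 to 17.3 CPM in Control and 12.6 to 24.2 in UIRI d7, and Col4a6 held 0.415 to 5.13 and 2.13 to 5.66 CPM. Control replicate 3 held the highest Control value of Col4a6; without it Col4a6 rose in UIRI d7 (1.21, edgeR adjusted p = 0.00846) and in UIRI+Nx d7 (1.28), and Col4a5 in UIRI+Nx d7 (0.56). Col4a5 was also called there without UIRI+Nx d7 replicate 5 (0.52) and with the library block as a term (0.45).

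Podocytes are a known source of the alpha3 and alpha4 chains. Of 10 podocyte markers, 1 was lower and none higher in UIRI d3 than in Control (all genes: 14.9% lower, 17.8% higher), 1 was lower and 3 higher in UIRI d7 (18.1% and 21.5%), and 1 was lower and none higher in UIRI+Nx d7 (14.0% and 17.3%). The summed podocyte markers were 369 to 541 CPM in Control, 339 to 462 in UIRI d3, 379 to 485 in UIRI d7 and 300.2 to 428 in UIRI+Nx d7. Of 7 distal tubule and collecting duct markers, 6 were lower in UIRI d3, and their sum was 6374 to 7959 CPM in Control and 2216 to 3248 CPM in UIRI d3. The part of either in the levels of Col4a3 and Col4a4 was not tested.

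The 3 gene pairs of type IV collagen lie head to head. The annotated starts of Col4a1 and Col4a2 are 21 bases apart with the genes overlapping there, those of Col4a4 and Col4a3 are 72 bases apart on chromosome 1, and those of Col4a6 and Col4a5 are 1309 bases apart on chromosome X. In each comparison with Control, with all libraries, both members of a pair rose, both fell or both missed the threshold. This did not hold throughout: in WT_IRNxd7 against WT_IRd7 Col4a3 was called (0.97) and Col4a4 was not (0.19, SE 0.12, adjusted p = 0.401, edgeR). The windows of Col4a1 (minus strand, chr8:11312777-11313076), Col4a2 (plus strand, chr8:11312555-11312854) and Col4a4 (minus strand, chr1:82586800-82587099) are shown to set a pair that rose beside a member of the pair that fell, with capitals as above. The first pair of windows shares 78 bases.
Col4a1: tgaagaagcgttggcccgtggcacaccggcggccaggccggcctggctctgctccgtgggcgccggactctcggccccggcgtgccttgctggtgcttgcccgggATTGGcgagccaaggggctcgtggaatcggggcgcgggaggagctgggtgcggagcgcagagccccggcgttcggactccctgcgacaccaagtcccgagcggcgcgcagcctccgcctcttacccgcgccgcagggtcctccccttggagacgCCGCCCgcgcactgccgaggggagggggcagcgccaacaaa
Col4a2: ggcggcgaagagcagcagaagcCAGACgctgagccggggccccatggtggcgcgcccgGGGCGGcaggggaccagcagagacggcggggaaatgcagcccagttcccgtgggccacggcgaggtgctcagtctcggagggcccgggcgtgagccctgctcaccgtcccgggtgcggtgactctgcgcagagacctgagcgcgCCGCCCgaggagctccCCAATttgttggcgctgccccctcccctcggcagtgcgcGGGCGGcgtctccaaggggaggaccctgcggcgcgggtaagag
Col4a4: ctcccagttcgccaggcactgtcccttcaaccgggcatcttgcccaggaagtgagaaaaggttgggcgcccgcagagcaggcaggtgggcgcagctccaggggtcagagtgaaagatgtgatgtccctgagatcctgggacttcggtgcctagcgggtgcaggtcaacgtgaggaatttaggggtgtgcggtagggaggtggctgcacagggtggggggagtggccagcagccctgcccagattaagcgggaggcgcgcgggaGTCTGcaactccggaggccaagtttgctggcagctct
The Col4a1 window held 1 match each to GGGCGG and CCAAT (read on the opposite strand), the Col4a2 window 3 to GGGCGG, 1 to CCAAT and 1 to CAGAC, and the Col4a4 window 1 to CAGAC. A match to letters is a description of the window and not a bound site.

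Of the 5 tested fibril-associated chains, 3 rose and 1 fell in UIRI d3 (17.8% and 14.9% of all genes). Col12a1, which links fibrils and is made where tissue is under load, was higher than Control in each injured group: 4.48 (3.72 to 5.69) CPM in Control, 11.2 (8.15 to 22.4) in UIRI d3, 42.9 (21.1 to 67.1) in UIRI d7 and 80.3 (42.0 to 90.5) in UIRI+Nx d7. Its log2 fold change from Control was 1.48 (SE 0.28, adjusted p = 0.000132), 3.26 and 4.00 (edgeR). Col16a1 rose from 35.4 (11.2 to 45.0) CPM to 81.6 (60.2 to 119) and 136 (81.1 to 177) CPM (1.51 and 2.05). Col14a1 held 42.1 (37.8 to 60.0) CPM in Control and 62.7 (39.5 to 85.2) in UIRI d3, where it passed the test narrowly (0.46, SE 0.18, adjusted p = 0.047, edgeR); the call was lost without Control replicate 1, 2, 3 or 5 or UIRI d3 replicate 1, 4, 5 or 6, with values of 0.34 to 0.46. Col19a1 fell from 2.07 (1.53 to 3.17) CPM to 0.194 (0.0707 to 0.515) CPM in UIRI d3 (-3.13, SE 0.62, adjusted p = 0.000266, edgeR) and had medians of 0.213 and 0.114 CPM in UIRI d7 and UIRI+Nx d7. Col20a1 rose in UIRI d7 (1.58), from a median of 0.321 to 1.12 CPM.

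The type VI chains alpha1, alpha2 and alpha3 rose. Col6a1 went from 6.04 (5.65 to 8.88) CPM to 27.4 (22.7 to 35.9) and 21.6 (15.7 to 34.2) CPM in UIRI d3 and UIRI d7, and Col6a2, its neighbour on chromosome 10, from 7.38 (5.34 to 9.36) to 41.5 (38.4 to 55.9) and 31.1 (18.2 to 53.7) CPM. Neither overlapped with Control. Col6a3 rose from 33.9 (22.0 to 67.2) to 202 (65.3 to 265) and 246 (29.3 to 395) CPM (2.20 and 2.54), with a wide spread that reached into the Control range. Col6a6, of a separate cluster on chromosome 9, fell: it held 2.65 (0.432 to 4.00) CPM in Control and 0.322 (0 to 0.858) in UIRI d3 (-3.00, SE 0.64, adjusted p = 0.000599, edgeR). Col6a4, of the same cluster, rose in UIRI d3 and UIRI d7 from 0.171 (0.0966 to 0.553) CPM to 0.758 (0.225 to 1.28) and 0.650 (0.232 to 3.08) CPM.

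Of the 15 tested chains of the remaining class, which takes in type VI, 9 rose and 1 fell in UIRI d3. In UIRI d7, 11 rose and 2 fell. Over all genes 17.8% were higher and 14.9% lower in UIRI d3, and 21.5% and 18.1% in UIRI d7. Col15a1 went from 20.5 (13.9 to 23.6) CPM to 83.3 (48.8 to 127) and 161 (58.3 to 203) CPM. Col18a1, the source of endostatin, went from 134 (99.1 to 163) to 368 (277 to 470.0) and 462 (409 to 526.2) CPM (1.45, SE 0.15, adjusted p = 1.41e-08 in UIRI d3, edgeR). Col8a1, a network chain of vessel walls, rose by 1.79 and 2.44, and Col7a1, the anchoring fibril chain, by 1.72 and 2.92 on the log2 scale. Col8a2, the partner of Col8a1, held 0.537 (0.145 to 1.19) CPM in Control and 3.04 (1.81 to 4.39) in UIRI d7, where it rose. Col17a1, a hemidesmosome protein of epithelia, held 0.0184 (0 to 0.104) CPM in Control and 1.53 (0.637 to 2.71) and 1.93 (1.70 to 2.43) CPM in UIRI d3 and UIRI d7. Control libraries held 4 counts of Col17a1 in all, so the ratio of UIRI d7 to Control was 52.8 with a 95% interval from counting of 20.2 to 196. Col10a1 rose in UIRI d7 and UIRI+Nx d7: Control held 1 count of it and UIRI d7 165, a ratio of 222 with a 95% interval from counting of 39.3 to 8817. Against Control, Col13a1 rose in UIRI+Nx d7, at 5.47 (2.704 to 6.70) CPM in Control and 7.99 (5.43 to 28.4) CPM there (1.46, SE 0.38, adjusted p = 0.00363, edgeR). Col23a1 held 2.77 (2.18 to 5.97) CPM in Control and 1.72 (0.491 to 2.77) CPM in UIRI d7, where its call (-0.94, SE 0.38, adjusted p = 0.04998, edgeR) was lost without Control replicate 1, 2, 3 or 5 or UIRI d7 replicate 2, 3, 4, 5 or 6. Without Control replicate 3, the highest Control library, the difference was -0.66.

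**Figure D3:**
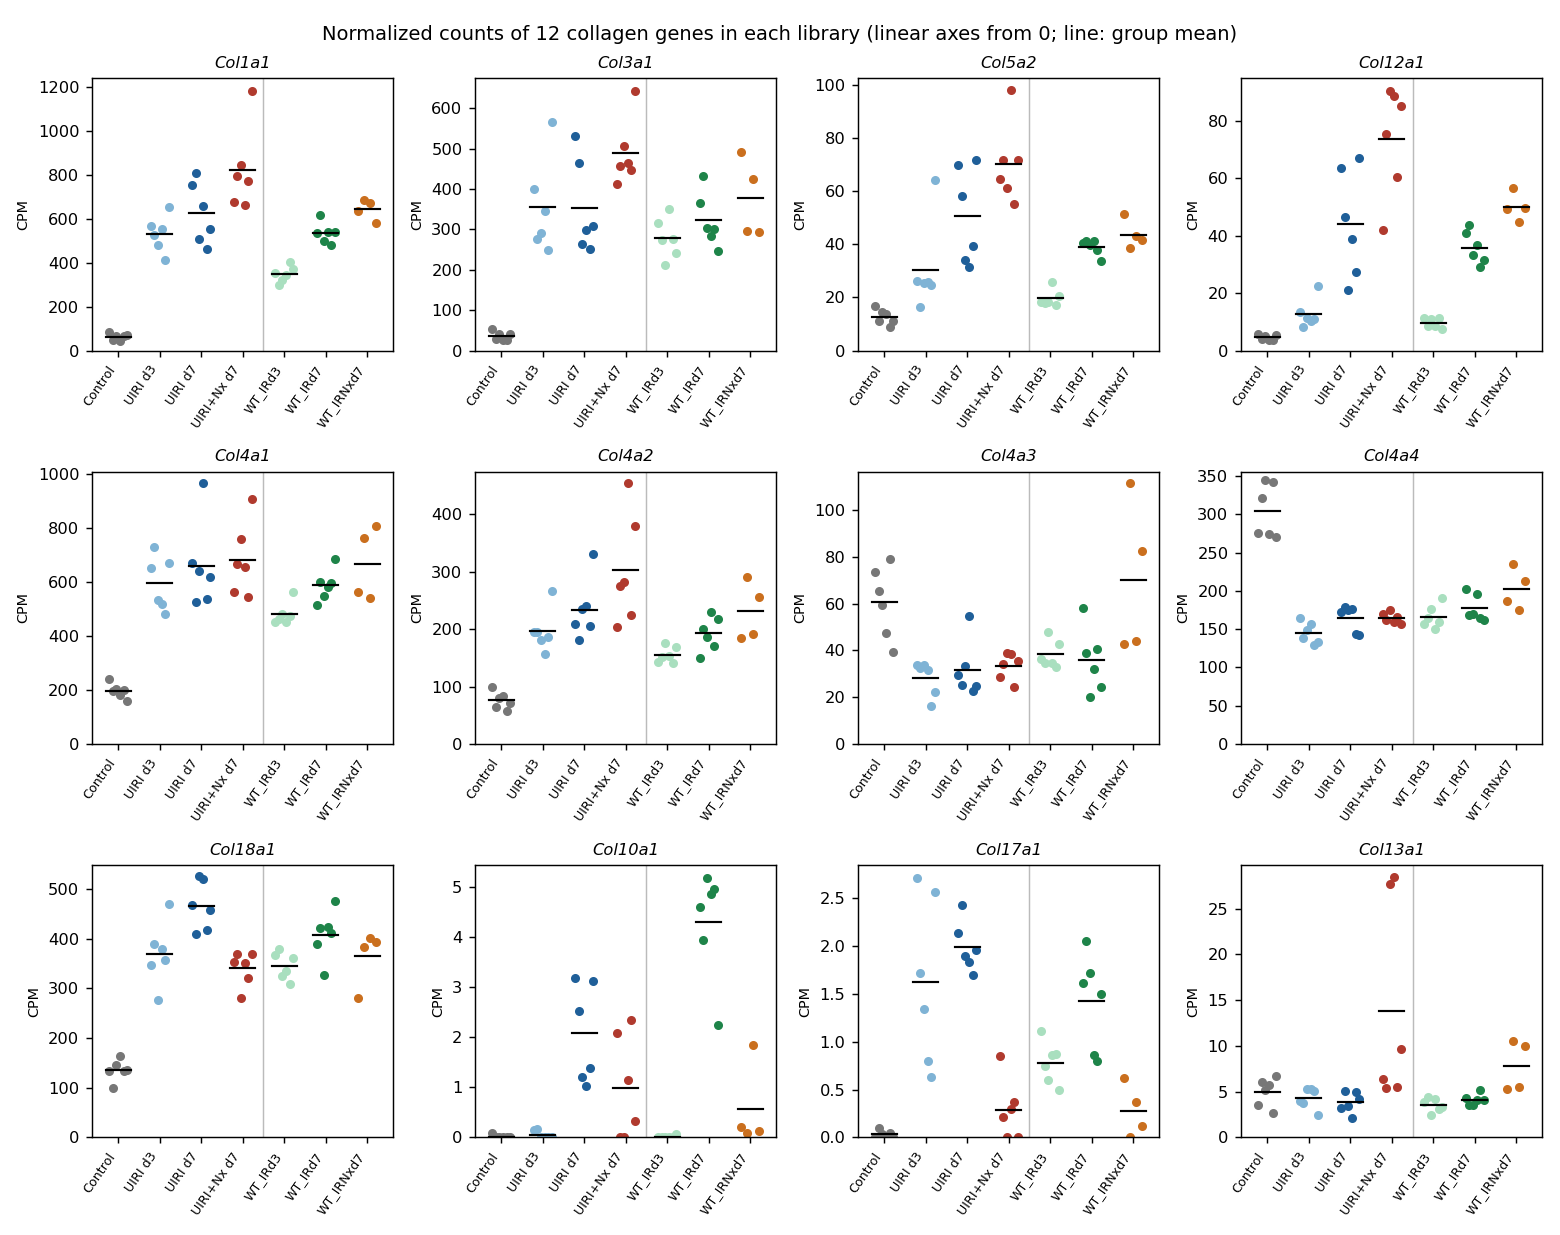
CPM (linear axes from 0) of 12 collagen genes in each library of the 7 groups; points are libraries, lines are group means and the grey line parts the cohorts. Within the first cohort Col4a4 is higher in Control than in all injured libraries, and in both cohorts all nephrectomy libraries lie below those of day 7 without it for Col17a1.

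The comparison of day 7 with day 3 asks how chains moved while the injured kidney was left with its partner. In the first cohort 2 of 34 rose and none fell (1.24% of all genes were higher and 1.36% lower). In the second 11 of 33 rose and 1 fell (4.51% and 4.05%). An unadjusted p below 0.05 (edgeR) was found for 11 of the 34 in the first cohort. The share of all genes at that unadjusted level was not counted. Of all genes 2.60% and 8.56% were called in either direction. In the first cohort 2 lay above and 0 below without overlap between the groups (1.0% and 1.38% of all genes), and in the second 10 lay above and 0 below without overlap between the groups (2.86% and 2.60% of all genes). DESeq2 called 6 in the first cohort, and without UIRI d3 replicate 6 edgeR called 4, with Col5a2 (1.10) and Col15a1 (0.93) added. Median log2 fold changes were 0.32 and 0.33, beside 0.01 and -8.9e-06 over all genes. Col12a1 rose in both: 1.79 (SE 0.27, adjusted p = 0.000314) between UIRI d3 and UIRI d7, and for the other cohort, from 9.64 (7.42 to 11.5) CPM in WT_IRd3 to 35.0 (29.0 to 43.7) CPM in WT_IRd7, 1.90 (SE 0.14, adjusted p = 1.78e-07) (edgeR). Col10a1, the hypertrophic cartilage network chain, rose in both from nearly no counts. It was at 0 (0 to 0.172) CPM in UIRI d3 and 1.96 (1.03 to 3.18) CPM in UIRI d7, and at 0 (0 to 0.0618) CPM in WT_IRd3 and 4.72 (2.25 to 5.17) CPM in WT_IRd7. WT_IRd3 held 1 count of it and WT_IRd7 387, a ratio of 367 with a 95% interval from counting of 65.5 to 14531. Col10a1 lies within Nt5dc1, on the opposite strand, so its reads are uncertain without the strand setting.

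In the second cohort Col1a1 rose from 347 (298 to 402) to 538 (481 to 617) CPM without overlap (0.62, SE 0.11, adjusted p = 0.000841, edgeR), and Col5a2 from 18.3 (17.1 to 25.9) to 40.1 (33.7 to 41.3) CPM (0.99). Col5a1, Col5a3, Col7a1, Col8a1, Col8a2, Col15a1 and Col16a1 also rose there, by 0.49 to 1.42 on the log2 scale. Col6a1 fell, from 22.1 (17.7 to 24.1) to 14.9 (12.3 to 18.1) CPM (-0.51, SE 0.13, adjusted p = 0.0216, edgeR). Type IV chains were not called in either cohort. Of the 33 genes tested in both, 27 had the same sign in the 2 cohorts, which share no library. The share of all genes with the same sign was not counted. No difference between cohorts in this contrast passed the test (0 of 35 in edgeR and 0 in DESeq2). Of the 35, 2 had an unadjusted p below 0.05 in edgeR, a level not counted over all genes. The edgeR test of that difference called 0 of all 16606 genes, so the lack of calls is not particular to collagen genes. The first cohort held 0 called fibrillar chains and the second 4, and this is not shown to be a difference between them. The libraries of the second cohort fall into blocks 2a and 2c. No WT_IRd3 library lies in block 2c: with the block as a term 8 of the second cohort's genes were called in place of 12, and within block 2a 7. In the first cohort, block 2b holds Control, UIRI d3 and UIRI+Nx d7 libraries but no UIRI d7 library. Group and block are thus partly joined wherever UIRI d7 is compared. The numbers of block 2b lie between those of blocks 2a and 2c of the second cohort, and what this run marks is not stated. Within block 1a of the first cohort none was called, and there Col12a1 differed by 2.20. The call of Col6a1 was lost without WT_IRd7 replicate 5 or WT_IRd3 replicate 1, that of Col8a2 without WT_IRd3 replicate 2 or 5, and that of Col5a3 without WT_IRd7 replicate 1, 4 or 6 or WT_IRd3 replicate 1, 2, 3 or 5.

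The nephrectomy comparison at day 7 asks how the injured kidney's chains depended on the other kidney. In the first cohort, 1 of 34 rose (Col13a1) and 4 fell (Col6a4, Col6a6, Col17a1 and Col20a1) in UIRI+Nx d7 against UIRI d7, beside 3.17% and 3.46% of all genes. In the second, 3 of 33 rose (Col4a3, Col6a2 and Col13a1) and 2 fell (Col10a1 and Col17a1) in WT_IRNxd7 against WT_IRd7, beside 2.58% and 2.66%. Calls in either direction took 6.62% and 5.24% of all genes. Of the collagen genes 1 lay above and 2 below without overlap between the groups (1.56% and 1.45% of all genes) in the first cohort, and 4 lay above and 2 below without overlap between the groups (3.03% and 3.02% of all genes) in the second. Col6a6, which like other described genes lay outside the rule for named genes, is given after its values had been seen. It held 0.698 (0.164 to 1.39) CPM in UIRI d7 and 0.0250 (0 to 0.232) in UIRI+Nx d7 (-2.88, SE 0.79, adjusted p = 0.0272, edgeR). In UIRI+Nx d7, 3 of 6 libraries held no count of Col6a6. Col6a4 held 0.650 (0.232 to 3.08) and 0.308 (0 to 0.541) CPM (-2.03, SE 0.63, adjusted p = 0.0494, edgeR), and its call was lost without UIRI+Nx d7 replicate 2, 3, 4, 5 or 6 or UIRI d7 replicate 1, 2 or 3; without UIRI d7 replicate 2 the difference was -1.39. Col20a1 held 1.12 (0.520 to 2.64) and 0.318 (0 to 0.699) CPM (-1.78, SE 0.53, adjusted p = 0.0407, edgeR), a call lost without UIRI+Nx d7 replicate 1, 2, 3, 5 or 6 or UIRI d7 replicate 2, 3, 4 or 5; without UIRI d7 replicate 4 the difference was -1.48.

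Col13a1, a transmembrane collagen, held 3.85 (2.18 to 5.10) CPM in UIRI d7 and 7.99 (5.43 to 28.4) in UIRI+Nx d7, without overlap (1.83, SE 0.39, adjusted p = 0.0042, edgeR). The high values were 27.7 and 28.4 CPM in replicates 3 and 4, and the other 4 libraries held 5.43 to 9.65 CPM. In the second cohort it held 4.13 (3.504 to 5.21) CPM in WT_IRd7 and 5.29, 10.6, 5.47, 9.98 CPM in the 4 WT_IRNxd7 libraries (0.93, SE 0.24, adjusted p = 0.0258, edgeR).

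Col17a1 fell in both cohorts with no overlap between groups. It held 1.93 (1.70 to 2.43) CPM in UIRI d7 and 0.259 (0 to 0.850) in UIRI+Nx d7 (-2.64, SE 0.54, adjusted p = 0.00302, edgeR), and 1.56 (0.802 to 2.05) CPM in WT_IRd7 and 0.623, 0, 0.370, 0.125 in the WT_IRNxd7 libraries (-2.51, SE 0.63, adjusted p = 0.0233, edgeR). Col10a1 fell in the second cohort, from 4.72 (2.25 to 5.17) CPM to 0.208, 0.0798, 1.85, 0.125 CPM (-2.89, SE 0.61, adjusted p = 0.00809, edgeR), and was not called in the first (1.96 (1.03 to 3.18) against 0.741 (0 to 2.34) CPM; -0.99, SE 0.63, adjusted p = 0.4). Col4a3 rose in the second cohort, from 35.4 (20.2 to 58.3) to 42.9, 112, 43.8, 82.6 CPM (0.97, SE 0.27, adjusted p = 0.0422, edgeR), a call lost without WT_IRNxd7 replicate 2 or 4, the highest libraries, or without any 1 of WT_IRd7 replicates 2 to 6. Col6a2 rose there from 23.5 (19.0 to 26.8) to 34.0, 54.4, 42.1, 28.7 CPM (0.77). Col18a1 did not overlap between groups in the first cohort, at 462 (409 to 526.2) CPM in UIRI d7 and 352 (281 to 369) in UIRI+Nx d7, but missed the threshold (-0.45, SE 0.14, adjusted p = 0.0558, edgeR). It was called with the library block as a term (-0.48, edgeR adjusted p = 0.04) and by DESeq2 (-0.46, adjusted p = 0.0109), and in no other alternative run, where adjusted p went up to 0.675.

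The abundant fibrillar chains did not pass the test with nephrectomy in either cohort. Col1a1 differed by 0.40 (SE 0.19, adjusted p = 0.223) and 0.27 (SE 0.12, adjusted p = 0.219) (edgeR), and Col3a1 by 0.47 (SE 0.23) and 0.23 (SE 0.18). Col12a1 differed by 0.74 (SE 0.26, adjusted p = 0.0899) in the first cohort and by 0.48 (SE 0.15, adjusted p = 0.0722) in the second (edgeR), where the groups did not overlap. It passed in the first cohort without UIRI+Nx d7 replicate 1 (0.86) or UIRI d7 replicate 6 (0.90), and in the second without WT_IRd7 replicate 2 (0.55). DESeq2 called it in the second (0.48), and edgeR with the replicate block in the first (0.81). Across the 33 genes tested in both cohorts, which share no library, the log2 fold changes had the same sign in 27, with a Pearson correlation across genes of 0.748 and a Spearman correlation of 0.652. Genes are not independent replicates, the share of all genes with the same sign was not counted, and this is a description. Block 2b of the first cohort also shares a run of library numbers with the second cohort. No difference between cohorts passed the test (0 of 35 in edgeR and 0 in DESeq2). Of the 35, 5 had an unadjusted p below 0.05 in edgeR, among them Col4a3 and Col10a1, a level not counted over all genes. The edgeR test of this difference called 0 of all 16606 genes, so the lack of calls is not particular to collagen genes.

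In the first cohort the number called was 2 without UIRI d7 replicate 3 or UIRI+Nx d7 replicate 2, 3 or 6, and 3 without UIRI d7 replicate 1 or 2 or UIRI+Nx d7 replicate 4 or 5, in place of 5; Col13a1 and Col17a1 kept their calls whichever 1 library was left out. In the second cohort 1 gene was called without WT_IRNxd7 replicate 2 and 3 without WT_IRd7 replicate 4. There the call of Col17a1 was lost without WT_IRNxd7 replicate 2 or 4 or WT_IRd7 replicate 2, that of Col13a1 also without WT_IRd7 replicate 4, and that of Col6a2 without WT_IRNxd7 replicate 2. Without WT_IRNxd7 replicate 2 Col17a1 differed by -1.90 and Col13a1 by 0.74. Within block 1a (3 libraries against 3) no gene was called, and there Col13a1 differed by 1.88 and Col17a1 by -2.34. Within the blocks 2a and 2c of the second cohort Col13a1 differed by 1.03 and 0.83 and Col17a1 by -3.05 and -2.10, with none called.

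**Figure D4:**
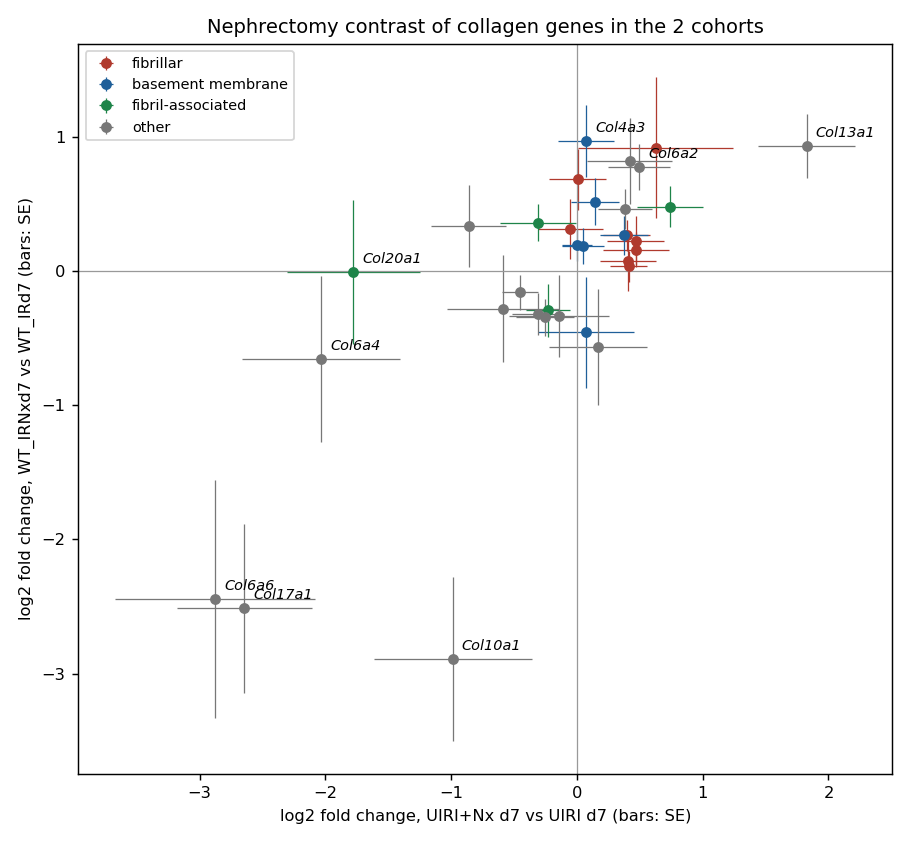
Log2 fold change with nephrectomy at day 7 in the first cohort (horizontal) and the second (vertical) for the 33 collagen genes tested in both; points are genes coloured by class, bars are standard errors, and genes called in either cohort are named. Col13a1 lies at upper right and Col17a1 at lower left, at -2.64 and -2.51.

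Kidneys with nephrectomy were also set against those of day 3. In UIRI+Nx d7 against UIRI d3, 7 of 34 rose and 1 fell (2.06% and 3.06% of all genes). In WT_IRNxd7 against WT_IRd3, 13 of 33 rose and none fell (2.97% and 3.04%). There 23 of the 33 had an unadjusted p below 0.05 (edgeR), and the share of all genes at that level was not counted. Col12a1 differed by 2.53 (SE 0.28, adjusted p = 4.99e-06) and 2.38 (SE 0.15, adjusted p = 1.89e-08) (edgeR). Col7a1 differed by 1.61 and 2.21, Col11a1 by 3.07 and 2.55, and Col5a2 by 1.21 and 1.15, all called. Col1a1 rose in the first cohort (0.63, SE 0.19, adjusted p = 0.0482, edgeR), a call lost without any 1 of the 12 libraries except UIRI+Nx d7 replicate 1 and UIRI d3 replicate 6 (0.49 without UIRI+Nx d7 replicate 6), and in the second (0.89). Col4a1 and Col4a2 rose in the second (0.48 and 0.57), and without WT_IRNxd7 replicate 2 were at 0.41 and 0.44, not called. Both calls were also lost without WT_IRNxd7 replicate 4 or WT_IRd3 replicate 1, 2 or 5, and that of Col4a1 without WT_IRd3 replicate 3 or 4. The call of Col11a1 in the second cohort was lost without WT_IRNxd7 replicate 2 (2.19). Col17a1 fell in the first cohort (-2.36, SE 0.54, adjusted p = 0.00854, edgeR) and was not called in the second (-1.62). Calls in either direction took 5.13% and 6.02% of all genes. In the first cohort 3 lay above and 0 below without overlap between the groups (1.21% and 2.24% of all genes), and in the second 11 lay above and 0 below without overlap between the groups (3.04% and 3.74% of all genes). These comparisons share libraries with those above.

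Ratios of chains within a library do not depend on library size, and 36 such tests were made (two-sided exact permutation, adjusted over the 36). The log2 ratio of Col4a3 to Col4a1 was -1.72 ± 0.25 (mean ± SD, n = 6) in Control and -4.42 ± 0.40 in UIRI d3, a difference of -2.70 with exact p = 0.00216, adjusted p = 0.0195, the smallest p that 6 against 6 allow. It differed by -2.69 in UIRI d7 and -2.62 in UIRI+Nx d7, and no injured library reached a Control library. In UIRI d3 and UIRI+Nx d7 all libraries lay below Control for Col4a3 and above it for Col4a1. The separation of this ratio there was fixed by those single-gene values and adds no separate evidence. The log2 ratio of Col1a1 to Col1a2 was -0.50 ± 0.40 in Control and 0.39 ± 0.28 in UIRI d3 (exact p = 0.00216, adjusted p = 0.0195). In UIRI d7 and UIRI+Nx d7 it was higher than Control by 0.84 and 0.74, with exact p = 0.00866, adjusted p = 0.0519 for each, which missed the threshold. Without Control replicate 5 they were 0.97 and 0.86, adjusted p = 0.0130 for each (exact permutation). No ratio of Col3a1 to Col1a1 or of Col4a1 to Col4a2 passed in any of 9 comparisons. Those tests cannot show that the ratios were equal: the Col4a1 to Col4a2 ratio in UIRI+Nx d7 against UIRI d3 differed by -0.40 (exact p = 0.0238, adjusted p = 0.107). In the second cohort the ratio of Col4a3 to Col4a1 in WT_IRd7 against WT_IRd3 differed by -0.46 and missed the threshold; without WT_IRd7 replicate 1 it was -0.66 (exact permutation, adjusted p = 0.0156).

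**Figure D5:**
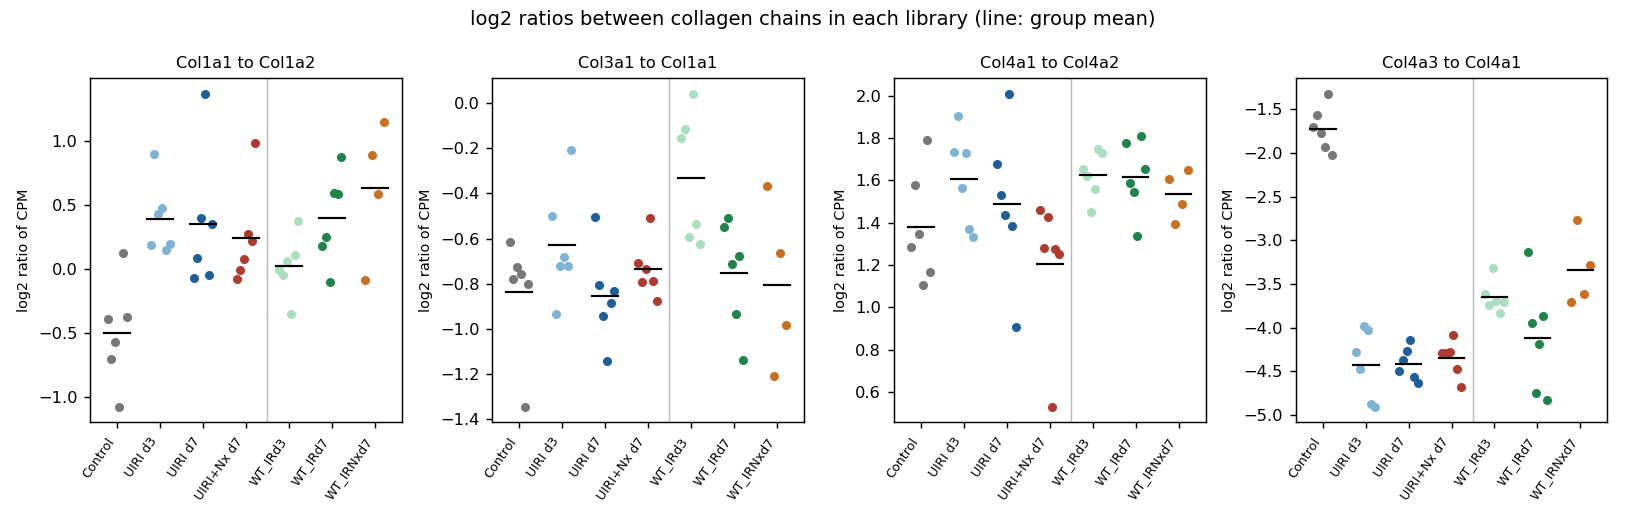
Log2 ratios of CPM between 4 pairs of chains in each library of the 7 groups; points are libraries and lines are group means. The ratio of Col4a3 to Col4a1 drops from a mean of -1.72 in Control to -4.42 in UIRI d3.

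Genes that act on collagen were counted in the same comparisons. In UIRI d3 against Control, 17.8% of all genes were higher and 14.9% lower. Of 13 tested genes of procollagen processing and crosslinking, 10 rose and none fell in UIRI d3. Adamts2, a protease that trims procollagen, rose from 8.50 ± 2.12 to 51.0 ± 6.88 CPM, a difference of 2.58 on the log2 scale, and Lox, the crosslinking oxidase, from 13.2 ± 2.63 to 71.4 ± 17.1 CPM. Of 24 genes of collagen folding and modification, 7 rose and 3 fell. Fkbp10, a collagen prolyl isomerase, rose from 13.3 ± 4.75 to 51.3 ± 10.2 CPM. Of 12 degradation genes 8 rose and 1 fell, with Timp1, the protease inhibitor, at 1.21 ± 0.455 and 66.5 ± 33.5 CPM, and Timp3, also an inhibitor, falling from 3355 ± 504 to 2087 ± 305 CPM. Of 20 basement membrane partners 10 rose, among them Agrn (a log2 fold change of 1.24), of 9 collagen receptors 6 rose, and of 16 fibril organisers 7 rose and 3 fell. Fn1, fibronectin, rose from 42.2 ± 4.01 to 218 ± 40.3 CPM.

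With nephrectomy at day 7, the first cohort held 1 lower gene each in the lists of folding (of 24), fibril organisers (of 16), receptors (of 9) and basement membrane partners (of 20), with none higher and none called in processing or degradation, beside 3.17% of all genes higher and 3.46% lower. In the second cohort 2 folding genes, 1 processing gene, 3 fibril organisers, 1 receptor and 1 basement membrane partner were lower, 1 basement membrane partner was higher and no degradation gene was called, beside 2.58% and 2.66% of all genes. Ddr2, a receptor for fibrillar collagen, was lower in both cohorts: 46.2 ± 15.7 CPM in UIRI d7 and 27.7 ± 6.32 in UIRI+Nx d7 (edgeR adjusted p = 0.0494), and 36.1 ± 4.00 in WT_IRd7 and 25.4 ± 1.79 in WT_IRNxd7 (edgeR adjusted p = 0.0172, n = 6 and 4). Dpt, dermatopontin, a fibril organiser, differed by -1.08 and -1.25, and P3h2, a prolyl hydroxylase of type IV collagen, by -1.09 and -0.62. P4ha1, a subunit of prolyl 4-hydroxylase, was lower in the second cohort (-0.75). Npnt, nephronectin of the basement membrane, was lower in the first (-1.28). Pxdn, peroxidasin, which crosslinks type IV collagen and stands in both the processing and the basement membrane list, was lower in the second (-0.69), as were the fibril organisers Prelp (-0.78) and Ecm2 (-0.86).

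In the first cohort, summed markers of fibroblasts, pericytes and myofibroblasts were higher in all injured libraries than in Control. These cells make fibrillar collagen. Of 15 markers, 12 rose in UIRI d3 (all genes: 17.8% higher, 14.9% lower). Their sum was 391 to 521 CPM in Control, 1103 to 1208 in UIRI d3, 867 to 1210.2 in UIRI d7 and 899 to 1022 in UIRI+Nx d7. The median sums were 1137, 1039 and 975 CPM in UIRI d3, UIRI d7 and UIRI+Nx d7, and 858, 898 and 732 CPM in WT_IRd3, WT_IRd7 and WT_IRNxd7. At day 7 the median marker sum was lower with nephrectomy in both cohorts. The marker ranges overlapped in the first cohort. In the second they did not, at 825 to 1000 CPM in WT_IRd7 and 681 to 801 in WT_IRNxd7. The median sum of the fibrillar chains was higher with nephrectomy in both cohorts, with overlapping ranges, and no fibrillar chain was called. These sums were not tested, alone or against each other. With nephrectomy 3 of 15 markers were lower and none higher in each cohort, beside 3.46% and 2.66% of all genes lower. Dpt was among the 3 in each cohort and is also counted with the fibril organisers above. Of 9 macrophage markers 8 rose in UIRI d3, and all 6 proximal tubule markers fell, with sums of 41129 to 65456 CPM in Control and 8290.2 to 14364 CPM in UIRI d3. Of 10 endothelial markers 2 were lower in UIRI d3, near the share over all genes. The part of these in the collagen levels was not tested.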

How the data were processed

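Gene counts were deposited by the authors as 1 table for both cohorts. Per the submitters' processing notes, first-cohort reads were handled with Trimmomatic, STAR and HTSeq 0.6.1 on GRCm38 and second-cohort reads with STAR 2.7.11b on GRCm39; neither annotation release nor strand setting is given in the sources used here. The 2 cohorts were therefore fitted separately, except for the test of the difference between them. Libraries were made from 3′ ends, so CPM does not scale with transcript length. Counts were filtered with filterByExpr, scaled by TMM and tested with edgeR 4.0.16 (quasi-likelihood, R 4.3.3), all groups of a cohort in 1 fit, with Benjamini-Hochberg adjustment over all genes and a threshold of 0.05. DESeq2 1.42.0 was an alternative. The difference between cohorts was fitted over 16606 genes. Ratios used log2(CPM + 0.1) and two-sided exact permutation tests. The edgeR step was tested on simulated counts.

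Samples were grouped by their labels; the labels do not say whether libraries of a group are separate animals in the second cohort, so p-values measure the spread between these samples. Same-numbered libraries did not deviate together and the models have no replicate block. No pair of libraries within a group agreed within sampling noise. The genes and gene lists were chosen with earlier results of these data known. Named in every comparison were Col1a1, Col1a2, Col3a1, Col5a1, Col5a2, Col4a1 to Col4a6, Col6a1 to Col6a3, Col7a1, Col8a1, Col12a1, Col14a1, Col15a1 and Col18a1, with up to 4 others a direction that passed the test at a group mean of at least 1 CPM and the largest changes, and up to 3 members of each partner list with the smallest adjusted p. Genes outside this rule are also described, among them Col6a4, Col8a2, Col16a1 and Col20a1 in UIRI d7 against Control. Others are Col10a1 and Col13a1 in UIRI+Nx d7 against Control. No single-gene alternative runs were made for these in those comparisons. Fits within blocks of library numbers were added after seeing the data. Promoter windows came from RefSeq (GRCm38.p6) by symbol; 9 of the 44 genes had none. The 1 library without a group was left out of all comparisons.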

Additional observations from a re-analysis of the deposited data

Results flagged for a closer look

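For each collagen gene and chain ratio, a library was looked at again where its distance to the nearest library of its group passed Dixon's 95% limit for groups of 4 to 10. That limit gives about 1 in 20 only for normally distributed values. Gene values were CPM without a log, some near 0, so the share flagged cannot be set against 1 in 20. The limit was passed in 30 of 259 groups tested. In Control these were Col10a1 in replicate 1 (0.0850 CPM, the others at 0), Col23a1 in replicate 3 (5.97 CPM, the others 2.18 to 3.06), Col4a6 in replicate 3 (5.13 CPM, the others 0.415 to 1.99), Col6a1 in replicate 6 (8.88 CPM, the others 5.65 to 6.68) and Col6a4 in replicate 3 (0.553 CPM, the others 0.0966 to 0.208). In UIRI d3 these were Col12a1 in replicate 6 (22.4 CPM, the others 8.15 to 13.3), Col4a2 in replicate 6 (266 CPM, the others 156 to 196), Col5a2 in replicate 6 (64.2 CPM, the others 16.5 to 26.1), Col5a3 in replicate 3 (18.1 CPM, the others 7.27 to 10.8) and Col6a2 in replicate 6 (55.9 CPM, the others 38.4 to 42.8). In UIRI d7 these were Col4a1 in replicate 4 (966 CPM, the others 524 to 668), Col4a3 in replicate 4 (54.6 CPM, the others 22.6 to 33.2) and Col4a5 in replicate 1 (24.2 CPM, the others 12.6 to 14.8). In UIRI+Nx d7 these were Col1a1 in replicate 6 (1182 CPM, the others 661 to 843) and Col5a1 in replicate 6 (119.8 CPM, the others 62.4 to 79.5). In WT_IRd3 these were Col10a1 in replicate 6 (0.0618 CPM, the others at 0), Col27a1 in replicate 4 (44.7 CPM, the others 24.9 to 31.2), Col4a1 in replicate 6 (561 CPM, the others 449.6 to 479.7), Col5a1 in replicate 2 (33.7 CPM, the others 38.3 to 40.9), Col5a3 in replicate 6 (11.4 CPM, the others 5.29 to 7.12) and Col7a1 in replicate 6 (11.3 CPM, the others 4.62 to 5.99). In WT_IRd7 these were Col6a3 in replicate 3 (325 CPM, the others 151 to 194). In WT_IRNxd7 these were Col10a1 in replicate 3 (1.85 CPM, the others 0.0798 to 0.208), Col18a1 in replicate 1 (281 CPM, the others 384 to 401), Col19a1 in replicate 1 (0 CPM, the others 0.319 to 0.374) and Col6a4 in replicate 3 (0.813 CPM, the others 0.120 to 0.208). Among log2 ratios these were Col1a1 to Col1a2 in UIRI d7 replicate 4 (1.36, the others -0.07 to 0.39), Col1a1 to Col1a2 in UIRI+Nx d7 replicate 6 (0.98, the others -0.08 to 0.27), Col3a1 to Col1a1 in Control replicate 5 (-1.34, the others -0.80 to -0.62), Col4a1 to Col4a2 in UIRI+Nx d7 replicate 4 (0.53, the others 1.25 to 1.46). UIRI d3 replicate 6 and WT_IRd3 replicate 6 each stood apart for several genes. Col10a1 in Control and in WT_IRd3 rested on 1 count.

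The sample labelled UNDETERMINED has no group, and the origin of its reads is not stated, so it is not taken as 1 animal. It held 12446693 counts, of which 38710 or 0.311% were from collagen genes (95% Wilson interval 0.308 to 0.314, counting error only). The Control libraries held 0.0959% to 0.120%, those of UIRI d3 0.294% to 0.458% and those of WT_IRd3 0.257% to 0.303%. No group is inferred from the share of this sample. It entered no comparison.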

How the results depend on the processing

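Without its most abundant chain the mean log2 difference of a class total moved by over 1 SD for many comparisons. For fibrillar chains it was 2.12 (UIRI d3 vs Control), 2.29 (UIRI d7 vs Control), 2.76 (UIRI+Nx d7 vs Control). For basement membrane chains it was -0.24 (UIRI d3 vs Control), -0.024 (UIRI d7 vs Control), 0.18 (UIRI+Nx d7 vs Control). For fibril-associated chains it was 0.51 (UIRI d3 vs Control), 1.01 (UIRI d7 vs Control), 0.25 (UIRI+Nx d7 vs UIRI d7), 0.53 (WT_IRNxd7 vs WT_IRd3). For the remaining chains it was 1.97 (UIRI d3 vs Control), 2.33 (UIRI d7 vs Control), 2.35 (UIRI+Nx d7 vs Control), 0.012 (UIRI+Nx d7 vs UIRI d7), 0.38 (UIRI+Nx d7 vs UIRI d3), 0.47 (WT_IRd7 vs WT_IRd3). Counts of called collagen genes moved by over 1.5 times as follows. With the setting within block 2b they were 17 in UIRI+Nx d7 vs Control, 2 in UIRI+Nx d7 vs UIRI d3. With the setting no filter on low counts they were 3 in UIRI+Nx d7 vs UIRI d7. With the setting only the groups compared they were 2 in UIRI+Nx d7 vs UIRI d7, 2 in WT_IRNxd7 vs WT_IRd7. With the setting within block 1a they were 0 in UIRI+Nx d7 vs UIRI d7, 0 in UIRI d7 vs UIRI d3, 2 in UIRI+Nx d7 vs UIRI d3. With the setting DESeq2 they were 6 in UIRI d7 vs UIRI d3. With the setting within block 2a they were 0 in WT_IRNxd7 vs WT_IRd7, 7 in WT_IRd7 vs WT_IRd3, 5 in WT_IRNxd7 vs WT_IRd3. With the setting within block 2c they were 0 in WT_IRNxd7 vs WT_IRd7. Leaving out 1 library at a time gave 2 to 4 calls in UIRI d7 vs UIRI d3, 2 to 6 calls in UIRI+Nx d7 vs UIRI d7, 1 to 6 calls in WT_IRNxd7 vs WT_IRd7. The log2 ratios ran from 0.64 to 0.97 for Col1a1 to Col1a2 in UIRI d7 vs Control, -0.24 to 0.061 for Col1a1 to Col1a2 in UIRI d7 vs UIRI d3, 0.59 to 0.86 for Col1a1 to Col1a2 in UIRI+Nx d7 vs Control, -0.25 to 0.10 for Col1a1 to Col1a2 in UIRI+Nx d7 vs UIRI d7, -0.12 to 0.042 for Col3a1 to Col1a1 in UIRI d7 vs Control, -6.6e-05 to 0.15 for Col3a1 to Col1a1 in UIRI+Nx d7 vs Control, -0.20 to 0.081 for Col3a1 to Col1a1 in WT_IRNxd7 vs WT_IRd7, -0.22 to 0.0021 for Col4a1 to Col4a2 in UIRI d7 vs UIRI d3, -0.048 to 0.047 for Col4a1 to Col4a2 in WT_IRd7 vs WT_IRd3, -0.083 to 0.10 for Col4a3 to Col4a1 in UIRI d7 vs UIRI d3, -0.019 to 0.16 for Col4a3 to Col4a1 in UIRI+Nx d7 vs UIRI d3, -0.66 to -0.32 for Col4a3 to Col4a1 in WT_IRd7 vs WT_IRd3. Same-numbered libraries did not pair (correlations of deviations from -0.424 to 0.447). With the replicate block the counts were 25 in UIRI d3 vs Control, 29 in UIRI d7 vs Control, 27 in UIRI+Nx d7 vs Control, 4 in UIRI+Nx d7 vs UIRI d7, 3 in UIRI d7 vs UIRI d3, 8 in UIRI+Nx d7 vs UIRI d3, 5 in WT_IRNxd7 vs WT_IRd7, 12 in WT_IRd7 vs WT_IRd3, 12 in WT_IRNxd7 vs WT_IRd3. Of 4399 alternative values of single genes, 94 changed direction, none of them called in either fit, 173 lost a call and 52 gained one, and the causes were not tested. Within block 1a: direction changed for Col4a5 in UIRI d3 vs Control (-0.032), Col4a1 in UIRI+Nx d7 vs UIRI d7 (-0.11), Col4a3 in UIRI+Nx d7 vs UIRI d7 (-0.092), Col4a6 in UIRI+Nx d7 vs UIRI d7 (-0.28), Col6a3 in UIRI+Nx d7 vs UIRI d7 (0.032), Col14a1 in UIRI d7 vs UIRI d3 (0.12), Col3a1 in UIRI d7 vs UIRI d3 (0.34), Col4a1 in UIRI+Nx d7 vs UIRI d3 (-0.095), Col4a3 in UIRI+Nx d7 vs UIRI d3 (-0.0055), Col4a6 in UIRI+Nx d7 vs UIRI d3 (-0.25), Col6a2 in UIRI+Nx d7 vs UIRI d3 (-0.32). No filter on low counts: direction changed for Col4a4 in UIRI+Nx d7 vs UIRI d7 (0.0029). Replicate block: direction changed for Col4a4 in UIRI+Nx d7 vs UIRI d7 (0.0029), Col3a1 in UIRI d7 vs UIRI d3 (0.0089), Col1a2 in WT_IRNxd7 vs WT_IRd7 (-0.068), Col5a1 in WT_IRNxd7 vs WT_IRd7 (-0.0063). Library block as covariate: direction changed for Col14a1 in UIRI d7 vs UIRI d3 (0.14), Col3a1 in UIRI d7 vs UIRI d3 (0.12), Col1a2 in WT_IRNxd7 vs WT_IRd7 (-0.015), Col4a3 in WT_IRd7 vs WT_IRd3 (0.23), Col4a5 in WT_IRd7 vs WT_IRd3 (0.10), Col4a6 in WT_IRNxd7 vs WT_IRd3 (-0.017), Col6a1 in WT_IRNxd7 vs WT_IRd3 (0.077). Within block 2b: direction changed for Col6a3 in UIRI+Nx d7 vs UIRI d3 (-0.040). Within block 2c: direction changed for Col1a2 in WT_IRNxd7 vs WT_IRd7 (-0.097). Within block 2a: direction changed for Col3a1 in WT_IRNxd7 vs WT_IRd7 (-0.041), Col5a1 in WT_IRNxd7 vs WT_IRd7 (-0.024), Col4a3 in WT_IRd7 vs WT_IRd3 (0.33), Col4a5 in WT_IRd7 vs WT_IRd3 (0.10), Col18a1 in WT_IRNxd7 vs WT_IRd3 (-0.064), Col6a1 in WT_IRNxd7 vs WT_IRd3 (0.14). Only the groups compared: direction changed for Col4a5 in WT_IRd7 vs WT_IRd3 (0.0041), Col6a3 in WT_IRNxd7 vs WT_IRd3 (0.0058). RLE size factors: direction changed for Col6a3 in WT_IRNxd7 vs WT_IRd3 (0.0041). DESeq2: direction changed for Col6a3 in WT_IRNxd7 vs WT_IRd3 (0.0042). With 1 library left out, values that changed direction ran from -0.056 to 0.14 for Col4a5 in UIRI d3 vs Control, -0.13 to 0.080 for Col14a1 in UIRI d7 vs UIRI d3, -0.16 to 0.18 for Col3a1 in UIRI d7 vs UIRI d3, -0.00085 to 0.20 for Col4a1 in UIRI d7 vs UIRI d3, -0.065 to 0.24 for Col4a3 in UIRI d7 vs UIRI d3, -0.016 to 0.21 for Col6a1 in UIRI+Nx d7 vs UIRI d3, -0.11 to 0.22 for Col6a2 in UIRI+Nx d7 vs UIRI d3, -0.047 to 0.19 for Col4a1 in UIRI+Nx d7 vs UIRI d7, -0.0059 to 0.30 for Col4a3 in UIRI+Nx d7 vs UIRI d7, -0.040 to 0.024 for Col4a4 in UIRI+Nx d7 vs UIRI d7, -0.074 to 0.30 for Col4a6 in UIRI+Nx d7 vs UIRI d7, -0.37 to 0.066 for Col6a3 in UIRI+Nx d7 vs UIRI d7, -0.089 to 0.27 for Col4a6 in WT_IRNxd7 vs WT_IRd3, -0.13 to 0.050 for Col6a1 in WT_IRNxd7 vs WT_IRd3, -0.33 to 0.23 for Col6a3 in WT_IRNxd7 vs WT_IRd3, -0.21 to 0.26 for Col1a2 in WT_IRNxd7 vs WT_IRd7, -0.017 to 0.084 for Col5a1 in WT_IRNxd7 vs WT_IRd7, -0.14 to 0.041 for Col14a1 in WT_IRd7 vs WT_IRd3, -0.29 to 0.028 for Col4a3 in WT_IRd7 vs WT_IRd3, -0.11 to 0.085 for Col4a5 in WT_IRd7 vs WT_IRd3. Counts under 10 in a group leave Col10a1 and Col17a1 in Control, and Col10a1 at day 3, with wide counting intervals. Col6a6 in UIRI+Nx d7, where 3 of 6 libraries held no count, was not given such an interval.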
